A study of Caenorhabditis elegans with 6 samples.

Results

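Long intergenic noncoding RNA (lincRNA) genes and antisense RNA genes were measured in the germline of Caenorhabditis elegans. The set comprised every gene with the biotype lincRNA or antisense_RNA in Ensembl release 115 of the WBcel235 annotation. It held 294 of the 46934 genes in the count tables, 194 lincRNA and 100 antisense RNA genes. Of these, 45 reached 30 reads summed over all 6 libraries and 36 passed the filter for testing. The samples were 3 sin-3(tm1276) libraries and 3 wild-type libraries, labelled germline. SIN-3 is the scaffold of a histone deacetylase complex, and the design asked how the germline transcriptome of the mutant differs from that of wild type. Each library was total RNA from the distal gonad arms of 5 to 7 young adult animals, dissected 12 h after the L4 larval stage, so a library is a pool of animals. Whether libraries of 1 genotype derive from independent cultures is not labelled, so the p-values reflect only how these libraries vary, which may be technical.

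LincRNAs are transcribed between protein-coding genes, and antisense RNAs are transcribed across a protein-coding gene from the other DNA strand. Such transcripts carry no long reading frame, are usually less abundant than messenger RNAs, and are often restricted to particular tissues or stages. Most worm lincRNA and antisense RNA genes, including those with the prefixes linc and anr, are known from transcript evidence alone. An exception is lep-5, a lincRNA that acts in the timing of the change from juvenile to adult form. The better-known noncoding RNA gene tts-1 is annotated as ncRNA and was not a member of the set.

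Libraries held 24491014 to 30634455 gene-assigned reads in the mutant and 24505604 to 25002505 in wild type. The targeted gene sin-3 had 179.5, 175.5 and 184.1 CPM (read counts scaled to library size with the trimmed mean of M values, TMM) in mutant libraries, against 366.8, 358.5 and 369.4 CPM in wild-type libraries. All 10 listed germ cell markers, between 59.9 and 1246 CPM in every library, passed the filter, and no listed sperm gene passed it. The 8 sperm genes summed to 0.218 to 0.491 CPM in mutant libraries and 0.213 to 0.433 CPM in wild-type libraries, with msp-10 at 0. The gene tts-1 had 5.69, 8.73 and 7.47 CPM in mutant libraries, against 6.29, 12.0 and 16.3 CPM in wild-type libraries, and was not called (edgeR adjusted p = 0.21). The gene tts-2, also annotated as ncRNA, had 4 reads in all. In a multidimensional scaling the genotypes were separated along axis 1, and wild-type replicate 1 stood apart on axis 2, at -0.85 against 0.47 and 0.34 for wild-type replicates 2 and 3.

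Most long noncoding and antisense genes gave few or no reads in the distal gonad. No read was assigned to 123 of the 294 genes, and 126 had 1 to 29 reads in all libraries together. At least 30 reads were reached by 37 lincRNA genes (19.1%) and by 8 antisense RNA genes (8%), against 51.5% of 19983 protein-coding genes and 2.94% of 7763 ncRNA genes. A gene with 0 reads in a library is compatible with up to 3 reads there, or 0.0942 to 0.115 CPM in mutant and 0.127 to 0.130 CPM in wild-type libraries. This floor covers counting error only.

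Genes with more exons were measured more often. Of 34 genes with 3 exons 35.3% were tested, and of 19 genes with 4 or more exons 42.1%, against 7.33% of 150 genes with 2 exons and 5.49% of 91 genes with 1 exon. Their median exonic lengths were 526.5 bases for 3 exons, 503 bases for 4 or more, 371 bases for 2 and 419 bases for 1. Among the tested genes these medians were 597.5, 682, 449 and 419 bases. The part of length in this was not tested. On the X lay 8 of the 36 tested genes, all lincRNA genes, from 45 members on that chromosome.

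**Figure D1:**
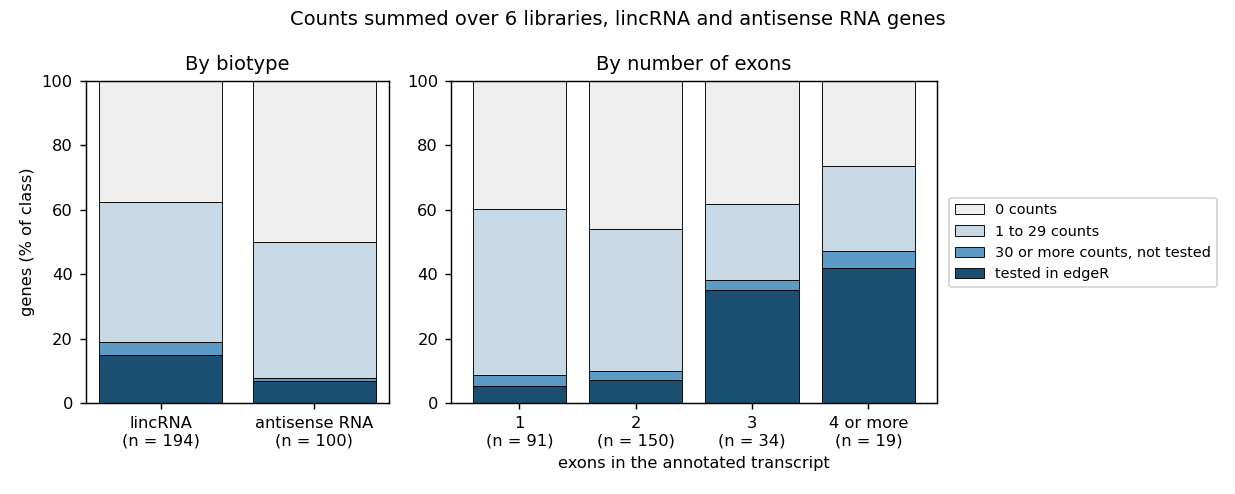
Share of lincRNA and antisense RNA genes (y axis, % of each class) by the number of reads summed over 6 libraries, for the 2 biotypes (left) and by the number of exons (right). Tested genes make up 14.9% of lincRNA and 7.00% of antisense RNA genes, and the tested share is larger among genes with 3 or more exons.

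The class as a whole was a small part of the transcriptome and its sum was larger in the mutant, as was that of other genes at like levels. The summed TMM-scaled CPM was 1.15-fold higher for the 294 genes and 1.19-fold higher for the tested genes in the level range of the tested members, mean CPM 0.288 to 13.0. The 294 genes took 128, 135 and 128 CPM of the gene-assigned reads in mutant libraries, before TMM scaling, against 106, 103 and 95.4 CPM in wild-type libraries. The genotypes did not overlap on this scale. In TMM-scaled units the lincRNA genes summed to 92.0, 100.4 and 92.4 CPM in the mutant and 84.5, 83.2 and 78.9 CPM in wild type. The antisense RNA genes summed to 28.8, 29.4 and 27.2 CPM in the mutant and 28.5, 25.8 and 21.9 CPM in wild type. The lincRNA sums did not overlap, whereas the antisense sums did, with wild-type replicate 1 above mutant replicate 3. Reads were assigned to 107, 117 and 99 of the 294 genes in mutant libraries and to 92, 90 and 85 in wild-type libraries. Over all genes the same number was 15898 ± 194 in the mutant and 14874 ± 99.7 in wild type (SD, n = 3). The 3 genes with most reads, linc-29, linc-7 and linc-6, took 28.5% of the reads of the set.

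By level per length, linc-6 led in the mutant. The X-linked linc-6 (WBGene00219700, X, 1982710 to 1982883, minus strand, WBcel235), with 1 exon of 174 bases, had a length-scaled level of 56.4 RPKM (CPM per kilobase of exon) in the mutant and 45.4 RPKM in wild type. Next in the mutant were linc-44, at 30.4 RPKM in the mutant and 39.9 RPKM in wild type, and linc-29, at 27 RPKM in the mutant and 14.3 RPKM in wild type. The antisense RNA gene anr-8 had 15.1 RPKM in the mutant and 16.1 RPKM in wild type. The median over the 36 tested genes was 2.11 RPKM, against 20.7 RPKM over 9176 tested protein-coding genes. The gene linc-6 overlaps F52D2.14 on its own strand over 23.0% of its exonic bases, so its count is uncertain there.

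**Figure D2:**
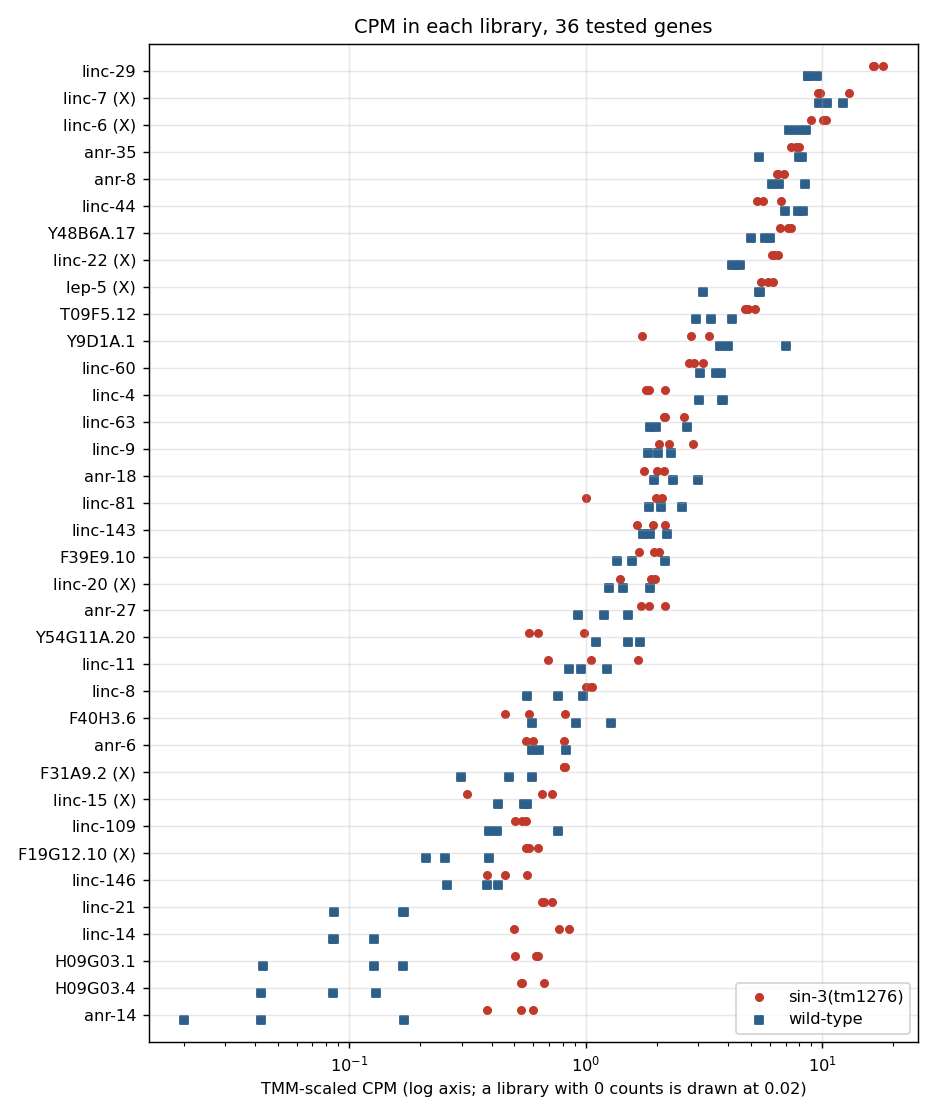
TMM-scaled CPM (x axis, log scale) of the 36 tested genes in each of 3 sin-3(tm1276) libraries (red circles) and 3 wild-type libraries (blue squares). Genes are ordered by mean level and X marks X-linked genes. The points of linc-29 stand at 16.3 to 18.2 CPM in the mutant and 8.68 to 9.48 CPM in wild type, and the 5 lowest genes are at 0.384 CPM or more in every mutant library and at 0.170 CPM or less in every wild-type library.

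In the mutant, 13 of the 36 tested genes rose, 4 fell and 19 were not called, by edgeR's quasi-likelihood test with Benjamini-Hochberg adjustment over 9787 genes at a threshold of 0.05. The higher genes were 10 lincRNA and 3 antisense RNA genes, and all 4 lower genes were lincRNA genes. The higher share of 36.1% stands beside 31.3% of all tested genes, and the lower share of 11.1% beside 30.7%. Among the 4394 tested genes whose mean level lay in the same range, 0.288 to 13.0 CPM, 37.3% were higher and 10.3% lower, so both shares were near those of genes in this range. The median log2 fold change of the 36 genes was 0.19, against 0.028 over all tested genes and 0.35 over genes in that range. Of the 13 higher genes, 7 passed the filter only through the mutant libraries, which favours genes that are high in the mutant: linc-14, linc-21, H09G03.1, H09G03.4, anr-14 and F19G12.10 reached the filter level in no wild-type library and F31A9.2 in 2. With no filter, where every gene with a read was tested, F19G12.10 and F31A9.2 were not called. All 3 mutant values were above all 3 wild-type values in 15 of the 36 genes (41.7%) and below them in 4 (11.1%). These shares were 34.8% and 33% over all tested genes. Over the 4394 genes in the same level range they were 43.0% and 12.8%, near those of the members. In all, 19 of 36 genes did not overlap between genotypes, or 52.8%, against 67.8% of all tested genes. No antisense RNA gene was called lower, and none of them had an unadjusted p under 0.05 in that direction in edgeR, nor was any called lower by DESeq2. When libraries were scaled by their totals, which put the median of all genes at 0.19 on the log2 scale, 14 genes were higher and 2 lower. DESeq2 called 8 higher and 4 lower. Without mutant replicate 2, 7 were higher and 2 lower.

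Markers of the somatic gonad differed in the same libraries. Of the 11 listed markers of sheath and somatic gonad, 8 were tested, of which 5 rose (ceh-18, gon-1, inx-8, inx-9 and lim-7) and 2 fell (tnt-4 and plst-1), with a median log2 fold change of 0.87. The 11 summed to 286 to 321 CPM in the mutant and 291 to 337 CPM in wild type, and none was at 0 in all libraries. Most of this sum came from unc-54 (not called), plst-1 (lower) and inx-8 (higher). Of these, unc-54 was at 55.8 to 106 CPM in the mutant and 79.7 to 147 CPM in wild type. The sum therefore does not describe the less abundant markers. The genes tnt-4, plst-1 and unc-54 are not particular to the somatic gonad, and the other 5 tested markers were all higher. The 9 intestinal markers summed to 287, 225 and 227 CPM in mutant libraries, against 222, 408 and 577 CPM in wild-type libraries, of which wild-type replicate 1 was the lowest. Most of this came from the yolk protein genes vit-2, vit-5 and vit-6, whereas the intestinal regulators elt-2 and elt-7 were below 1 CPM in every library. Of 7 tested intestinal markers 1 rose, ifb-2. The 7 hypodermal markers summed to 47.8 to 60.8 CPM in mutant and 42.7 to 84.3 CPM in wild-type libraries, nearly all from col-19, and neither of the 2 tested was called. Neuronal markers summed to 54.5 to 62.0 CPM in mutant and 78.4 to 83.7 CPM in wild-type libraries, with 2 higher and 3 lower of 7 tested. Most of this came from snb-1 (lower), at 42.4 to 45.3 CPM in the mutant and 65.7 to 70.7 CPM in wild type. The neuronal sum thus does not describe the other neuronal markers. The 7 body wall muscle markers summed to 134 to 196 CPM in mutant and 116 to 193 CPM in wild-type libraries, and none was called. The part of these cells in the levels of the noncoding genes was not tested, and in such samples fewer cells of a type and less RNA per cell cannot be told apart.

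Among genes with a level above 4 CPM in both genotypes, linc-29 changed most. This lincRNA (WBGene00189951, IV, 6354024 to 6357243, plus strand) has 3 exons, and no protein-coding gene lies within 4725 bases. It had 16.3, 16.5 and 18.2 CPM in mutant libraries, against 9.48, 8.74 and 8.68 CPM in wild-type libraries. Every mutant library was higher than every wild-type library. The gene was 1.90-fold higher in the mutant (log2 fold change 0.92 ± 0.094, SE; edgeR adjusted p = 1.2e-06).

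Other abundant lincRNA genes rose by smaller amounts. The X-linked linc-22 (WBGene00219699, X, 9069138 to 9073735) had 6.11, 6.25 and 6.52 CPM in mutant libraries, against 4.30, 4.15 and 4.49 CPM in wild-type libraries, 1.46-fold higher (edgeR adjusted p = 0.0021). The groups of linc-22 were apart and narrow. T09F5.12 (V, 15164743 to 15166318) had 4.84, 5.18 and 4.70 CPM in the mutant and 4.17, 3.38 and 2.92 CPM in wild type, 1.41-fold higher (edgeR adjusted p = 0.016). For linc-6 the values were 10.4, 10.1 and 8.98 CPM in the mutant and 7.91, 7.23 and 8.55 CPM in wild type, 1.24-fold higher (edgeR adjusted p = 0.027). The mutant and wild-type values of linc-6 came within 0.5 CPM of each other. The call of T09F5.12 ended without mutant replicate 2, wild-type replicate 2 or wild-type replicate 3, and that of linc-6 without mutant replicate 1, mutant replicate 2 or wild-type replicate 2 and under DESeq2. Their edgeR and DESeq2 adjusted p ranged over all alternatives from 0.0020 to 0.067 and from 0.0017 to 0.104.

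Some lincRNA genes that were near the floor in wild type had several reads in each mutant library. Of the 36 tested members, 6 had an absolute log2 fold change above 1. Of the 4394 tested genes in the same level range, 0.288 to 13.0 CPM, 1019 did. The gene linc-14 (WBGene00195060, V, 17539172 to 17539475) had 13, 27 and 22 reads in mutant libraries, against 2, 2 and 3 in wild-type libraries. For linc-21 (WBGene00219688, IV, 4242086 to 4242466) there were 17, 23 and 19 reads in the mutant and 4, 2 and 4 in wild type. These are 6.87-fold and 4.67-fold higher, with edgeR adjusted p of 1.5e-04 and 3.8e-04. Both had passed the filter through the mutant libraries alone, and with no filter the edgeR adjusted p was 3.6e-06 for linc-14 and 1.1e-04 for linc-21. No value of either gene in the mutant overlapped wild type. Neighbouring on the plus strand of chromosome III, H09G03.1 (3226514 to 3228057) and H09G03.4 (3228439 to 3229446) behaved much alike. H09G03.1 had 16, 16 and 18 reads in the mutant and 3, 1 and 4 in wild type, and H09G03.4 had 14, 17 and 19 reads in the mutant and 2, 3 and 1 in wild type. The log2 fold changes were 2.30 ± 0.48 and 2.69 ± 0.50 (SE), with edgeR adjusted p of 8.9e-04 and 3.2e-04. These genes also had passed the filter through the mutant libraries alone, and with no filter the edgeR adjusted p was 2.7e-04 for H09G03.1 and 5.0e-05 for H09G03.4. A further lincRNA gene beside them, H09G03.5, had 1 read in the mutant and 0 in wild type. The nearest protein-coding gene, Y53G8AL.1, was not called, at 1.52 ± 0.18 CPM in the mutant and 1.31 ± 0.053 CPM in wild type (SD, n = 3; edgeR adjusted p = 0.42).

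X-linked members were called in 1 direction. Of the 8 tested, 4 were higher (linc-6, linc-22, F31A9.2 and F19G12.10) and 0 lower. Of all 1245 tested X-linked genes 61.5% were higher and 2.97% lower, and of 8522 tested autosomal genes 26.8% were higher and 34.8% lower. Of the 28 autosomal members, 9 were higher and 4 lower. F19G12.10 (X, 1420699 to 1423497) had 15, 20 and 16 reads in mutant libraries, against 6, 9 and 5 in wild-type libraries. F31A9.2 (X, 1794816 to 1795673) had 21, 26 and 23 reads in the mutant and 14, 11 and 7 in wild type. Both had every mutant value above wild type, at 2.05-fold and 1.77-fold (edgeR adjusted p = 0.029 and 0.045). F19G12.10 kept its call without wild-type replicate 2 and F31A9.2 without wild-type replicate 1, and each lost it when any other library was left out, with no filter and under DESeq2. F31A9.2 also lost it when genes with 30 summed reads were tested. Over all alternatives their adjusted p ranged from 0.013 to 0.16 and from 0.018 to 0.18.

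The other 4 X-linked members were not called. The abundant linc-7 (WBGene00219609, X, 16002599 to 16003728) had 9.61, 13.0 and 9.78 CPM in the mutant and 10.5, 12.3 and 9.70 CPM in wild type. The timing gene lep-5 (WBGene00010424, X, 12652591 to 12653520) had 6.22, 5.90 and 5.51 CPM in mutant libraries, against 3.15, 5.41 and 5.46 CPM in wild-type libraries. All mutant values of lep-5 were above wild type, but wild-type replicates 2 and 3 were close to the mutant and replicate 1 was well below them. Without wild-type replicate 1 the log2 fold change of lep-5 was 0.11. The difference of 0.33 ± 0.19 (log2, SE) was not called (edgeR adjusted p = 0.14), and it passed the threshold when libraries were scaled by totals or on autosomal genes (0.026 and 0.048, in a range up to 0.51). For linc-20 and linc-15 the groups overlapped, with log2 fold changes of 0.20 ± 0.24 and 0.14 ± 0.38 (SE).

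The lower genes were all lincRNA genes on chromosome II, which holds 8 of the 29 tested lincRNA genes, a grouping seen after the values. The gene linc-4 (WBGene00219306, 6268939 to 6269516) had 1.81, 2.17 and 1.86 CPM in mutant libraries, against 3.79, 3.81 and 3.01 CPM in wild-type libraries. Y54G11A.20 (14312560 to 14313131) had 0.576, 0.628 and 0.982 CPM in the mutant and 1.11, 1.51 and 1.69 CPM in wild type. No mutant library reached the wild-type range in either gene. They were 1.81-fold and 1.97-fold lower in the mutant, with edgeR adjusted p of 0.0011 and 0.010. Y9D1A.1 (7446672 to 7448544), which with 12 exons has the most in the set, had 1.73, 2.79 and 3.33 CPM in the mutant and 7.02, 3.98 and 3.68 CPM in wild type. The gene linc-44 (5781921 to 5782113) had 6.69, 5.62 and 5.30 CPM in the mutant and 6.98, 8.27 and 7.88 CPM in wild type. Y9D1A.1 was spread widely within both genotypes, and linc-44 nearly touched at mutant replicate 1 and wild-type replicate 1. Their edgeR adjusted p was 0.028 and 0.019. The call of Y9D1A.1 ended without mutant replicate 1 or 2 or wild-type replicate 1, and that of linc-44 without mutant replicate 2 or 3 or wild-type replicate 2. Scaling by library totals ended both calls, and scaling on autosomal genes ended that of linc-44. Over all alternatives the adjusted p reached 0.11 for Y9D1A.1, from 1.1e-05, and 0.15 for linc-44, from 0.0082.

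**Figure D3:**
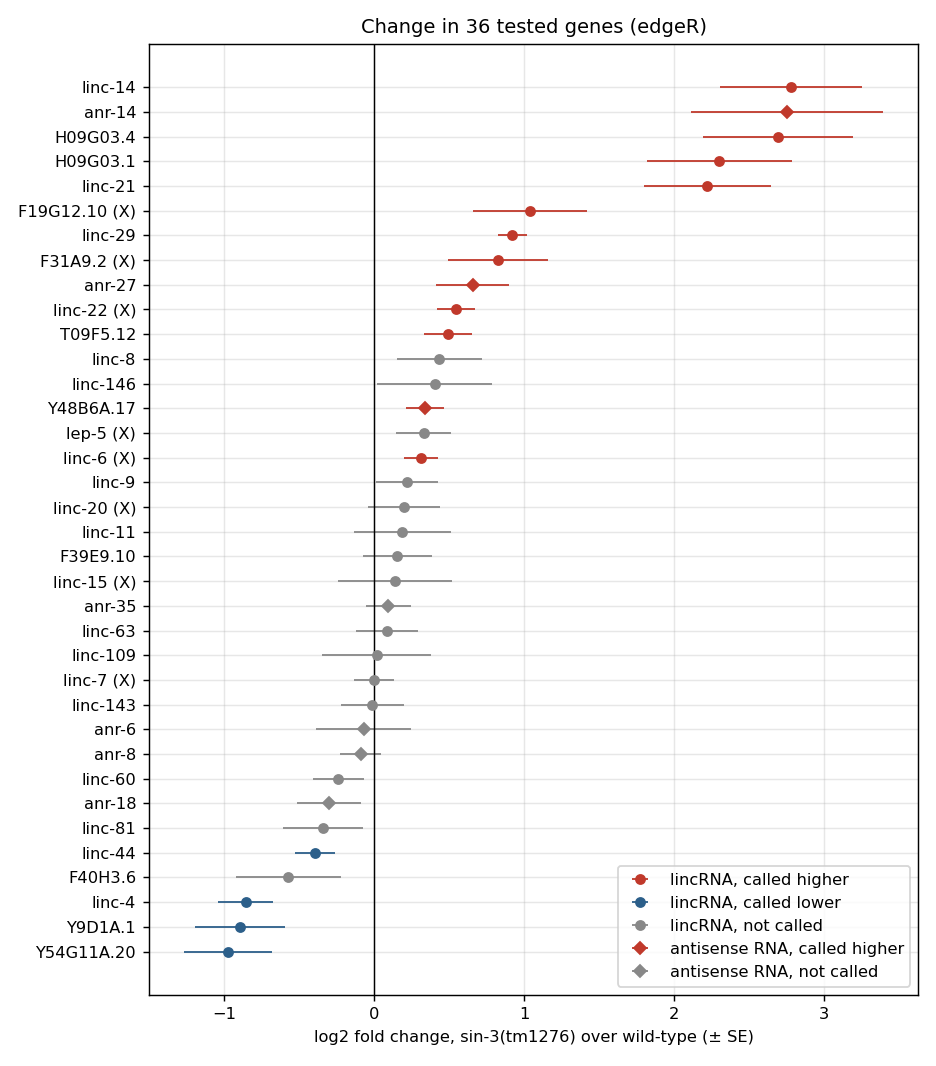
Log2 fold change, sin-3(tm1276) over wild-type, with its standard error for the 36 tested genes by edgeR, lincRNA as circles and antisense RNA as diamonds, with X marking X-linked genes. Red marks the 13 genes called higher, blue the 4 called lower and grey the 19 not called, and the 5 largest increases are those of genes under 1 CPM.

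Antisense RNA genes were described with the protein-coding gene on the other strand. Of the 100 antisense RNA genes 92 overlap at least 1 protein-coding gene in this way, as do 21 lincRNA genes. Among 115 such protein-coding genes 62 were tested, of which 21 were higher and 18 lower, or 33.9% and 29%, near the 31.3% and 30.7% over all tested genes. The libraries came from a stranded kit, but the strand setting of the authors' counting is not given in the sources used here. Of 13 members with at least 90% of their exonic bases under exons of the other strand, 10 had at least 1 read, up to 1005 reads for Y48B6A.17. Ambiguous reads were 0.465% to 0.473% of counted reads in mutant and 0.438% to 0.453% in wild-type libraries. If strand was not used in counting, reads wholly under exons of both an antisense gene and its partner match both genes. Such reads would be ambiguous and counted for neither. The strand setting was not tested.

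Y48B6A.17 (WBGene00194884, II, 14214428 to 14216765, minus strand) and its partner were both higher. Its exons lie to 95.3% under those of Y48B6A.10. Y48B6A.17 had 7.19, 7.41 and 6.63 CPM in mutant libraries, against 5.74, 5.02 and 6.01 CPM in wild-type libraries. Y48B6A.10 had 13.6, 12.9 and 12.4 CPM in the mutant and 8.59, 9.22 and 9.44 CPM in wild type. Neither gene of the pair overlapped between genotypes. The log2 fold changes were 0.34 ± 0.13 for the antisense gene and 0.51 ± 0.097 for the partner (SE), with edgeR adjusted p of 0.032 and 3.9e-04. The call of Y48B6A.17 ended without mutant replicate 1 or 2 or wild-type replicate 2, with no filter and under DESeq2, in a range of adjusted p from 0.0028 to 0.12.

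In the other 2 antisense genes called higher, the partner did not rise. The gene anr-14 (WBGene00219557, I, 12775554 to 12776532, minus strand) had 10, 17 and 17 reads in mutant libraries, against 4, 0 and 1 in wild-type libraries. Its partner B0019.2 had 78.3, 80.6 and 76.9 CPM in the mutant and 86.6, 84.7 and 86.4 CPM in wild type. The genotypes were apart for both genes and in opposite directions, with log2 fold changes of 2.75 ± 0.64 for anr-14 and -0.13 ± 0.038 for B0019.2 (SE; edgeR adjusted p = 0.0019 and 0.0094). The filter was passed through the mutant libraries alone by anr-14, whose edgeR adjusted p with no filter was 1.3e-04. The call of B0019.2 ended when libraries were scaled by totals or on autosomal genes, and under the first its log2 fold change was 0.038. The reads of anr-14 equalled 0.382% of those of B0019.2 over all libraries. The gene anr-27 (II, 560597 to 560990) had 1.84, 2.17 and 1.72 CPM in the mutant and 1.19, 1.51 and 0.932 CPM in wild type. Its partner C09E8.1 had 4.04 ± 0.42 CPM in the mutant and 4.69 ± 0.73 CPM in wild type (SD, n = 3) and was not called (edgeR adjusted p = 0.27). The groups of anr-27 were apart, at 1.58-fold (edgeR adjusted p = 0.029), and its call ended without mutant replicate 2, wild-type replicate 1 or wild-type replicate 3 and under DESeq2, with adjusted p from 0.0072 to 0.12. No exonic base of anr-27 lies under an exon of C09E8.1.

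The most abundant antisense RNA genes were not called. The gene anr-35 (II, 11170721 to 11176247) had 7.95, 7.75 and 7.36 CPM in the mutant and 7.95, 8.22 and 5.42 CPM in wild type. For anr-8 (IV, 8959570 to 8960955) there were 6.53, 6.87 and 6.45 CPM in the mutant and 8.42, 6.58 and 6.14 CPM in wild type. The mutant values of both lay within the wild-type range. Their log2 fold changes were 0.095 ± 0.15 and -0.090 ± 0.14 (SE). In both pairs the protein-coding partner was the less abundant gene, with 0.913 ± 0.093 CPM for F37H8.6 beside anr-35 and 0.637 ± 0.25 CPM for tpra-1 beside anr-8 in the mutant, and 0.313 ± 0.086 and 0.413 ± 0.15 CPM in wild type (SD, n = 3). F37H8.6 rose, with a log2 fold change of 1.53 ± 0.34 (SE; edgeR adjusted p = 0.0014), and tpra-1 was not called (adjusted p = 0.21 by edgeR). Likewise C09G1.4, on the other strand of linc-7, was at 0.882 ± 0.13 CPM in the mutant and 0.428 ± 0.26 CPM in wild type (SD, n = 3), and was called higher (edgeR adjusted p = 0.042).

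In 2 further pairs the antisense gene was not called. The F-box gene fbxc-47 fell to 7.80, 9.86 and 9.85 CPM in mutant libraries, against 24.5, 23.5 and 25.4 CPM in wild-type libraries, a log2 fold change of -1.41 ± 0.099 (SE). Its antisense gene anr-18 had 2.15, 1.76 and 2.00 CPM in the mutant and 2.98, 2.34 and 1.95 CPM in wild type, a log2 fold change of -0.30 ± 0.21 (SE) that was not called (edgeR adjusted p = 0.23). The gene anr-6 and its partner F25B4.4 were both uncalled, at log2 fold changes of -0.071 ± 0.32 and -0.023 ± 0.056 (SE).

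**Figure D4:**
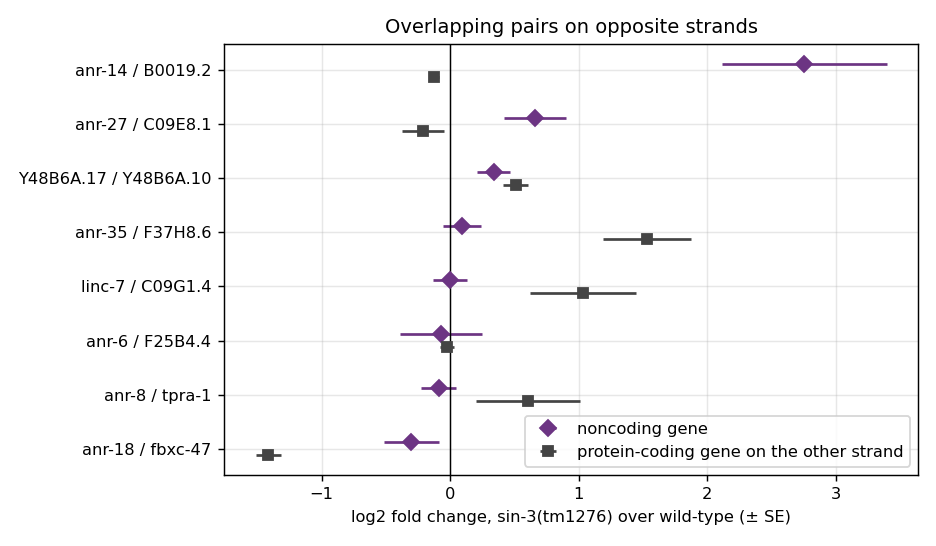
Log2 fold change, sin-3(tm1276) over wild-type, with its standard error for 8 noncoding genes (purple diamonds) and the protein-coding gene on the other strand of each (grey squares), by edgeR. The pair of anr-14 and B0019.2 lies widest apart, at 2.75 and -0.13, and anr-18 and fbxc-47 are at -0.30 and -1.41.

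The nearest protein-coding gene was tested for 17 of the 29 tested lincRNA genes. Both were called in 3 pairs, with the same direction in 2 and opposite directions in 1. Of all tested protein-coding genes, 31.9% were higher and 31.2% lower. Upstream of C18D4.6 by 797 bases on the same strand, linc-14 was higher together with that gene, which had 11.4 ± 1.0 CPM in the mutant and 3.69 ± 0.65 CPM in wild type (SD, n = 3). F52D2.12, near linc-6, was at 26.6 ± 1.9 CPM in the mutant and 20.4 ± 2.2 CPM in wild type (SD, n = 3), and was called higher. K05F1.6 was higher, at 4.19 ± 0.66 CPM in the mutant and 2.85 ± 0.27 CPM in wild type (SD, n = 3), while linc-44, 407 bases from it, was lower.

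Among the 10 uncalled lincRNA genes with a tested nearest protein-coding gene, that gene was lower in 5, higher in 2 and not called in 3. With 31.2% of all tested protein-coding genes lower and 31.9% higher, called neighbours are common for any gene. Within the span of daf-2, the insulin receptor gene, and on its strand but not under its exons, linc-143 had 1.92 ± 0.26 CPM in the mutant and 1.94 ± 0.24 CPM in wild type (SD, n = 3). Reads of unspliced daf-2 RNA, if present in these total RNA libraries, cannot be told apart from those of linc-143. The values for daf-2 were 195 ± 6.8 CPM in the mutant and 227 ± 9.9 CPM in wild type (SD, n = 3), and the gene was called lower at -0.21 ± 0.039 (log2, SE). Likewise cul-5, 271 bases from linc-146, had a log2 fold change of -0.86 ± 0.040 (SE), while linc-146 was at 0.40 ± 0.38 (SE) and overlapped between genotypes. Other uncalled genes had the sign of their neighbour, such as linc-60 at -0.24 ± 0.17 beside Y41E3.1 at -0.68 ± 0.037 and linc-81 at -0.34 ± 0.27 beside fars-2 at -0.49 ± 0.039 (log2 fold change, SE). These lie 57 and 182 bases from the neighbour, on its strand, and whether reads of the neighbour extend into them was not tested. In contrast, linc-8 was at 0.44 beside gbas-1 at -0.27 (log2 fold change). The neighbour of linc-15, C49F5.6, was higher, at 138 ± 2.1 CPM in the mutant and 80.8 ± 4.4 CPM in wild type (SD, n = 3).

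**Figure D5:**
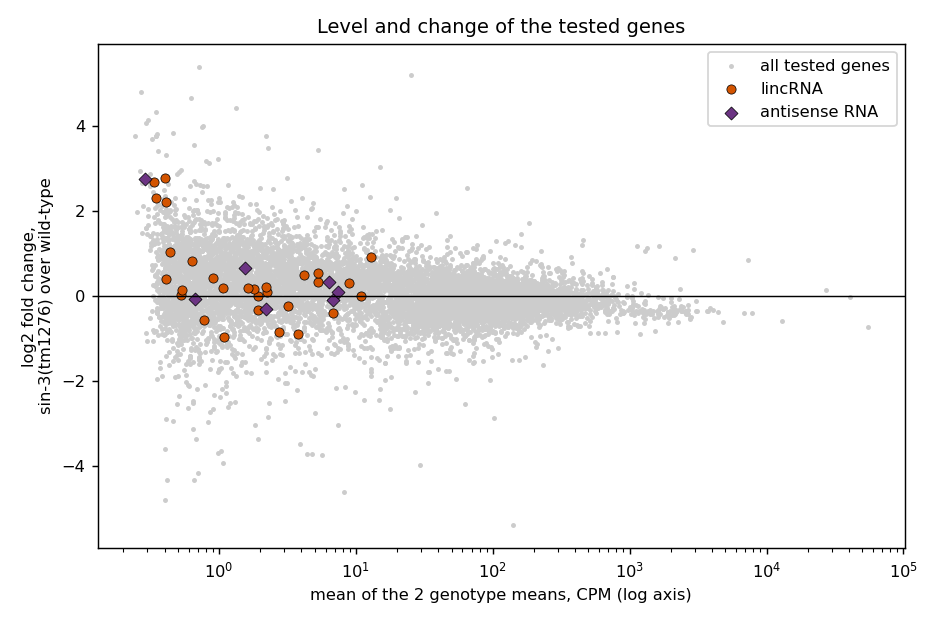
Log2 fold change, sin-3(tm1276) over wild-type (y axis), against the mean of the genotype means in CPM (x axis, log scale) for all 9787 tested genes (grey), with 29 lincRNA genes (orange circles) and 7 antisense RNA genes (purple diamonds). The noncoding genes lie between 0.288 and 13.0 CPM, and the increases above 2 on the log2 scale are at the low end of that range.

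Below the filter, 258 members were not tested, of which 135 had at least 1 read. Their summed level was 8.42, 8.63 and 6.94 CPM in mutant libraries, against 5.78, 5.41 and 4.79 CPM in wild-type libraries. The sums did not overlap. Reads fell in both genotypes for 67 of these genes, in the mutant alone for 43 and in wild type alone for 25. A like count for other untested genes is not given here. Over all genes, reads were assigned to 15898 ± 194 in mutant and 14874 ± 99.7 in wild-type libraries (SD, n = 3). The deepest library was mutant replicate 2, with 30634455 gene-assigned reads. At 30 summed reads, the members just inside were linc-35 with 11, 11 and 7 reads in the mutant and 1, 0 and 0 in wild type, anr-34 with 11, 13 and 5 reads and 2, 0 and 0, and linc-116 with 3, 13 and 9 reads and 3, 1 and 4. Just outside were linc-142 with 6, 4 and 8 reads in the mutant and 3, 2 and 3 in wild type, Y39A3B.3 with 7, 8 and 4 and 2, 2 and 2, and K09A9.12, level with others at 24 reads, with 10, 5 and 4 and 2, 2 and 1.

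Of the 9 members with 30 reads that the filter left out, 3 were higher when every gene with 30 reads was tested, linc-35, anr-34 and linc-19, named after their values were seen. Over all genes in that fit, 3116 of 11114 were higher. The gene linc-35 had 29 reads in the mutant and 1 in wild type, a ratio of 23.6 with an exact 95% counting interval of 3.91 to 963. For anr-34, 29 reads in the mutant and 2 in wild type gave a ratio of 11.8 (2.98 to 102), and linc-19 with 31 and 4 reads gave 6.30 (2.23 to 24.6). These intervals cover counting error only. In that fit the edgeR adjusted p was 9.7e-04 for linc-35, 0.0045 for anr-34 and 0.0041 for linc-19. Nearly all their reads were from the mutant, so they reached 30 reads through the group where they are high. With no filter the edgeR adjusted p was 1.5e-04 for linc-35, 6.9e-04 for anr-34 and 0.0029 for linc-19. On the strand opposite anr-34, the zinc finger gene ztf-1 was lower, at 70.1 ± 0.78 CPM in the mutant and 93.1 ± 6.0 CPM in wild type (SD, n = 3).

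The authors' deposited table lists 86 of the 294 genes, 67 with an adjusted p. There, at 0.05 in the authors' deposited table, 11 of them were higher and 4 lower, where over all its genes 19.2% were higher and 23.8% lower. The authors' deposited table gives 12 of the 17 genes called here the same call and direction, and it also calls linc-19, linc-35 and anr-34 higher.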

How the data were processed

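Gonad RNA of 3 sin-3(tm1276) and 3 wild-type samples was sequenced as single-end reads of 50 bases from a stranded total RNA kit with ribosomal RNA depletion, per the labels' protocols. The authors deposited whole-number read counts per gene for each library, not normalized. The submitters' processing notes name HTSeq 0.7.2, STAR 2.7.3a, DESeq2 1.36.0 and fastp 0.20.1 without their roles. The build, the annotation and the strand setting used were, for the counting, not given in the sources used here. A table of the comparison by the authors holds a mean normalized signal, log2 fold changes and p-values, per the file headers. Lines that name no gene held 8.73% to 9.22% of counted reads in mutant and 9.43% to 10.9% in wild-type libraries and were left out. Of 46934 identifiers 46923 matched Ensembl release 115, which gave biotypes, names and WBcel235 coordinates.

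The counts were fitted with edgeR 4.0.16 in R 4.3.3 (filterByExpr with a minimum count of 10, about 0.400 CPM in 3 libraries, TMM, robust quasi-likelihood test on genotype, Benjamini-Hochberg over 9787 genes, threshold 0.05). Fold changes are mutant over wild type. DESeq2 1.42.0, other scalings, other filters, each library left out and a replicate block were alternatives. Overlap required 1 base of gene span on the other strand. The code was tested on simulated data. Libraries of a genotype differed by more than sampling noise (chi-square per degree of freedom 12.5 to 18.8). Genes named were all members called, the 6 most abundant tested members of each biotype, tested X-linked members, members next to the 30-read limit and opposite-strand partners of called members. Other neighbours and partners, H09G03.5, linc-143, linc-146, linc-60, linc-81, linc-8, linc-19 and the marker genes were named after their values were seen. The members and lists were chosen with earlier results of these data known.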

Additional observations from a re-analysis of the deposited data

How the results depend on the processing

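Over 13 alternatives, 7 of the 13 higher genes (linc-29, linc-14, linc-21, linc-22, H09G03.1, H09G03.4 and anr-14) and 2 of the 4 lower genes (linc-4 and Y54G11A.20) were called every time, and 18 of the 19 uncalled genes never were. Of these higher genes all but linc-29 and linc-22 passed the filter through the mutant libraries alone. The exception among the uncalled was lep-5. Scaling by library totals gave 2 lower lincRNA genes, 10 lower opposite-strand partners (18 with TMM), a median log2 fold change of 0.36 for lincRNA and 0.26 for antisense RNA genes (0.20 and 0.095 with TMM), and log2 ratios of summed CPM of 0.37 and 0.33 (0.21 and 0.17). Scaling on autosomal genes gave medians of 0.30 and 0.19 and a lincRNA sum ratio of 0.31. With no filter the medians were 0.55 and 0.57, over 121 and 50 genes, and with 30 summed reads the antisense median was 0.21. DESeq2 called 1 antisense RNA gene higher. With single libraries left out, higher lincRNA genes numbered 6 to 9, lower ones 2 to 4, higher antisense RNA genes 1 to 3, and the medians were 0.12 to 0.33 and -0.073 to 0.20. Higher partners numbered 17 to 20 and lower ones 17 to 18, and the sum ratios were 0.17 to 0.23 and 0.070 to 0.26. Signs turned in uncalled genes near 0 and in B0019.2, which was called lower with TMM. By library totals the log2 fold changes were 0.077 for anr-8, 0.16 for linc-7, 0.094 for anr-6 and 0.038 for B0019.2, and on autosomal scaling 0.0084, 0.0996 and 0.027 for the first 3. With no filter linc-7 was at 0.0088. Leaving out libraries turned linc-15 (lowest -0.11, highest 0.42), anr-8 (-0.18, 0.059), anr-35 (-0.073, 0.20), linc-7 (-0.17, 0.099) and anr-6 (-0.24, 0.080). The cause was not tested. The replicate block gave 11 higher and 3 lower members, ending the calls of F31A9.2, Y9D1A.1 and Y48B6A.17. Same-numbered libraries did not deviate together (correlations of -0.25, -0.068 and -0.10), and the main fit used no pairing. With 3 libraries of each genotype, these correlations cannot show whether equal numbers mark a shared preparation. Counts below about 10 per library limit the precision for most members.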
